A study of Mus musculus with 8 samples.

Results

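The 9 genes of the germline programme, *Dazl*, *Ddx4*, *Mael*, *Sycp3*, *Tex101*, *Slc25a31*, *Stk31*, *Tdrd1* and *Tuba3a*, were followed in Hi-C maps of mouse embryonic stem cells (mESCs) that lacked, or were inhibited for, enzymes methylating lysine 9 of histone H3 (H3K9). They were chosen by name, as germ cell genes known to be kept silent in stem cells, and make up 9 of the 20709 protein-coding autosomal genes scored in all 8 libraries. Their gene bodies fall in 11 of the 23972 bins of 100 kb. Neither transcripts nor histone methylation were among the values used here, so silencing itself was not measured, and the values below describe the chromosomal neighbourhood of each gene.

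Hi-C counts how often pairs of loci touch in fixed nuclei, and a compartment score is the first eigenvector of such a contact map. A score above 0 marks the A compartment, which holds mostly active chromatin, and a score below 0 marks the B compartment, which holds mostly inactive chromatin near the nuclear lamina. The score has no physical unit. Setdb1 WT was the untreated conditional *Setdb1* knockout line #33-6, and Setdb1 KO was the same line given 800 nM 4-hydroxytamoxifen (4-OHT) for 5 days, which deletes the gene. Setdb1 WT + UNC received 2 µM UNC0642, an inhibitor of the H3K9 methyltransferases G9a and GLP, for 3 days. Setdb1 KO + UNC received 4-OHT for 2 days and then UNC0642 for 3 days. Suv39h WT and Suv39h DKO were the clones ADF1-26 and ADF157, the latter lacking both *Suv39h1* and *Suv39h2*, and Suv39h WT + UNC and Suv39h DKO + UNC were these clones given UNC0642 in the same way. All cells were grown with LIF on gelatin. The WT cells of the Setdb1 line had no 4-OHT, so the agent and the loss of SETDB1 cannot be told apart. Since WT and DKO are separate clones, clone and genotype cannot be told apart either. Each group has 1 set of scores, called a library here. Setdb1 KO and Setdb1 KO + UNC differ in the days of 4-OHT as well as in UNC0642, so the inhibitor alone is not compared in that pair.

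Germline genes of this class are switched on in primordial germ cells, in meiosis or in maturing sperm, and are kept off in embryonic stem cells by H3K9 methylation, DNA methylation and the repressor complex PRC1.6. PRC1.6 is brought to promoters by DNA-binding subunits, among them E2F6 and the pair MGA and MAX, and has been found together with G9a and GLP. H3K9me2, the mark that G9a and GLP deposit, covers much of the B compartment. The question put to the maps was therefore whether the neighbourhoods of these genes lie in B, and whether they move towards A when the enzymes are lost.

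The promoters were read for the sites of these subunits. In the RefSeq promoters (GRCm38.p6, 250 bases before to 50 after the start), the E-box CACGTG, the site of MGA and MAX, was found in 6 of 9 genes and in 8 of their 12 promoters. Of all 31365 promoters of this length, 7.14% hold it. *Stk31* and *Tdrd1* have overlapping promoters, in which the same E-box is counted more than once. The motif GCGGGA, an E2F6-type site, was found in 5 of the 12 promoters, against 20.2% of all promoters, and both motifs together in 4 of the 12, against 2.01%. *Dazl* and *Tex101* had neither. CpG dinucleotides numbered 3 to 38 per promoter with a median of 23, against a median of 7 over all promoters. Each motif holds a CpG, and the shares over all promoters were not matched for CpG content. These matches describe the letters only. CACGTG reads the same on both strands, GCGGGA was also searched as TCCCGC, and a match of one may share an end base with the other. The parts of 4 of these promoters that lie upstream of both the RefSeq and the GENCODE start are shown 5′ to 3′ on the strand of the gene, with the motifs in capitals. *Mael* and *Sycp3* hold both motifs, *Tdrd1* had the widest range of scores, and *Dazl*, with no match, is the one gene of B.
Mael (chr1:166238748-166238994, minus strand): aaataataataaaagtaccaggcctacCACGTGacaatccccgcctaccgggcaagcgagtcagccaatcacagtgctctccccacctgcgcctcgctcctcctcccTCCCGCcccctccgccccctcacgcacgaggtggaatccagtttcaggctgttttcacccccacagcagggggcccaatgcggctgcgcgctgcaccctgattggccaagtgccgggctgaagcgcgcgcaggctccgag
Sycp3 (chr10:88459337-88459568, plus strand): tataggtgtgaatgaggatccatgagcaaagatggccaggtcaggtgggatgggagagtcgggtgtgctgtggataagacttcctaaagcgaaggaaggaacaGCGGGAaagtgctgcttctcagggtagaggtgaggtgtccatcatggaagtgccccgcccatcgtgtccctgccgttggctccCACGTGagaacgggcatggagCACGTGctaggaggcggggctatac
Tdrd1 (chr19:56825959-56826208, plus strand): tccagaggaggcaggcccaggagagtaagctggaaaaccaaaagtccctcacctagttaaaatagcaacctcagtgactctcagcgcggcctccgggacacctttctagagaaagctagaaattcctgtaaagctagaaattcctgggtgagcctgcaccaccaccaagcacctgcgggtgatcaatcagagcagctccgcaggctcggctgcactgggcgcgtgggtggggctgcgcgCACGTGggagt
Dazl (chr17:50293637-50293870, minus strand): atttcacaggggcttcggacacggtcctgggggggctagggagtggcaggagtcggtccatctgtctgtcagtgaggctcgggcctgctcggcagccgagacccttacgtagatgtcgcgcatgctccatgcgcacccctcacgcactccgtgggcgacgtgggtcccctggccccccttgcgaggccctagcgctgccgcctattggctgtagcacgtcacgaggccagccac

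Among the 9 germline genes, 8 lay in the A compartment in all 8 libraries, and *Dazl* lay in B in all 8. Over the protein-coding genes, 70.8% were in A in all 8 libraries, 21.1% in B in all 8, and 8.03% had both signs. The mean of each gene over its bins was taken as its score. Ordered by the mean over libraries, the genes ran *Dazl*, *Mael*, *Slc25a31*, *Sycp3*, *Ddx4*, *Stk31*, *Tex101*, *Tdrd1* and *Tuba3a*. Each autosome has an eigenvector of its own, so the order between chromosomes is approximate. From *Mael* to *Tuba3a*, the ranges of all neighbours in this order overlapped, and the gap was between *Dazl* and *Mael*. The score closest to 0 was that of *Mael* in Suv39h WT, at 0.0105. For every gene, the smallest size of the score exceeded the highest mean that appears to have been subtracted from its chromosome, which for *Mael* was 0.00617.

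**Figure D1:**
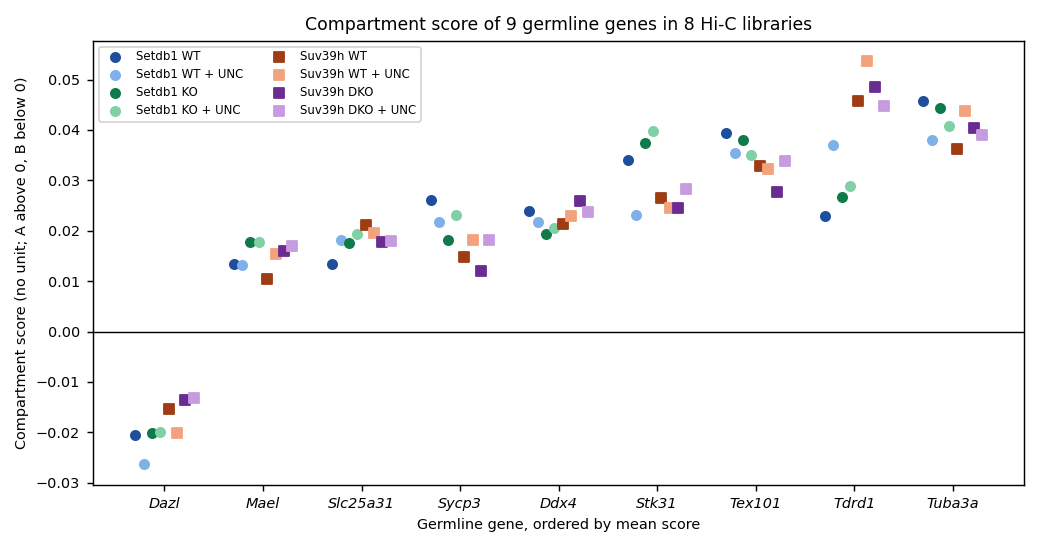
Compartment score (y axis, no unit) of each germline gene (x axis) in each of the 8 libraries, with circles for the Setdb1 line, squares for the Suv39h clones and 1 point per library. *Dazl* is the gene below 0 in all libraries, and *Tdrd1* shows the Suv39h squares above the Setdb1 circles.

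*Dazl* (chr17:50279395-50293636, minus strand) encodes an RNA-binding protein that germ cells need to enter gametogenesis. In the Setdb1 line it scored -0.0205 in WT, -0.0263 in WT + UNC, -0.0201 in KO and -0.0198 in KO + UNC. In the Suv39h clones it scored -0.0154 in WT, -0.0200 in WT + UNC, -0.0136 in DKO and -0.0132 in DKO + UNC. All values are well inside B, and the values of the 2 lines overlap. *Dazl* stood between the 7.71th and the 15.9th percentile of protein-coding genes. It sits in a B block of 3500 to 4300 kb, and at most 1 of the 10 bins within 500 kb was in A in any library. Its own bin holds no other protein-coding gene, and 4 lie within 500 kb.

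Among the genes of the piRNA pathway, which silences transposons in germ cells, *Tdrd1* varied the most. TDRD1 is a Tudor-domain protein that binds PIWI proteins in germ granules. *Tdrd1* (chr19:56826209-56870012, plus strand) scored, within the Setdb1 line, 0.0229 in WT, 0.0370 in WT + UNC, 0.0266 in KO and 0.0290 in KO + UNC. In the Suv39h clones it scored 0.0457 in WT, 0.0537 in WT + UNC, 0.0486 in DKO and 0.0447 in DKO + UNC. All Suv39h values lie above all Setdb1 values, and Setdb1 WT + UNC is the highest of the Setdb1 line. The range of 0.0308 from lowest to highest was at the 98.9th percentile of the ranges of protein-coding genes, whose median was 0.00922.

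*Stk31* (chr6:49395604-49469501, plus strand), a testis kinase with a Tudor domain, spans 2 bins that behaved differently. The first bin, with the start of the gene, ranged from 0.0361 to 0.0457. In the second bin the Setdb1 line scored 0.0252 in WT, 0.00913 in WT + UNC, 0.0330 in KO and 0.0340 in KO + UNC. The Suv39h clones scored 0.0123 in WT, 0.0129 in WT + UNC, 0.0120 in DKO and 0.0167 in DKO + UNC. There, Setdb1 WT + UNC fell below all Suv39h libraries while the other 3 Setdb1 libraries lay above them. Averaged over both bins, *Stk31* ranged by 0.0167, at the 89.4th percentile.

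*Mael* (chr1:166201201-166238747, minus strand), whose product acts with piRNAs against transposons, ranged from 0.0105 to 0.0177. *Ddx4* (chr13:112598333-112652475, minus strand), the RNA helicase of germ granules, ranged from 0.0194 to 0.0259, the narrowest range of the 9 genes at 0.00645. *Mael* stood between the 33.9th and the 38.9th percentile of protein-coding genes. *Ddx4* ran from the 39.6th percentile in Setdb1 KO to the median in Suv39h DKO, where it and the median gene both scored 0.0259.

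*Sycp3* (chr10:88459569-88473236, plus strand) encodes a lateral element protein of the synaptonemal complex, which pairs chromosomes in meiosis. In the Setdb1 line it scored 0.0262 in WT, 0.0218 in WT + UNC, 0.0181 in KO and 0.0231 in KO + UNC. In the Suv39h clones it scored 0.0147 in WT, 0.0182 in WT + UNC, 0.0119 in DKO and 0.0182 in DKO + UNC. The lines overlap, with the Setdb1 KO value just below the highest Suv39h values.

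Of the genes for later sperm functions, *Tex101* (chr7:24668007-24676675, minus strand), a surface glycoprotein of germ cells, scored 0.0394, 0.0353, 0.0381 and 0.0349 in Setdb1 WT, WT + UNC, KO and KO + UNC. It scored 0.0329, 0.0322, 0.0277 and 0.0339 in Suv39h WT, WT + UNC, DKO and DKO + UNC, all below the Setdb1 line. *Slc25a31* (chr3:40708855-40726096, plus strand), the mitochondrial ADP/ATP carrier of testis, ranged from 0.0135 to 0.0211. *Tuba3a* (chr6:125278274-125286042, minus strand), an alpha-tubulin of testis, ranged from 0.0362 to 0.0458 and was the highest of the 9 by mean score.

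The surroundings fell into 3 kinds. *Ddx4*, *Tex101*, *Tdrd1* and *Tuba3a* had all 10 bins within 500 kb in A in every library, and *Stk31* had 9 or 10. *Dazl* lay inside B. *Mael*, *Sycp3* and *Slc25a31* lay in A close to a border with B. The A stretch between the bin of the gene and the nearest B bin was 100 to 200 kb for *Mael* and 100 to 300 kb for *Sycp3*. For *Slc25a31* a B bin was next to the bin of the gene in 7 of 8 libraries. These 3 genes scored above the mean of their flanks in 8 of 8 libraries, by 0.00457 to 0.0236. Of the 90 flanking bins, 65 were in A and 16 in B in all 8 libraries, and 9 (10.0%) changed sign between libraries, against 13.0% of all bins.

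**Figure D2:**
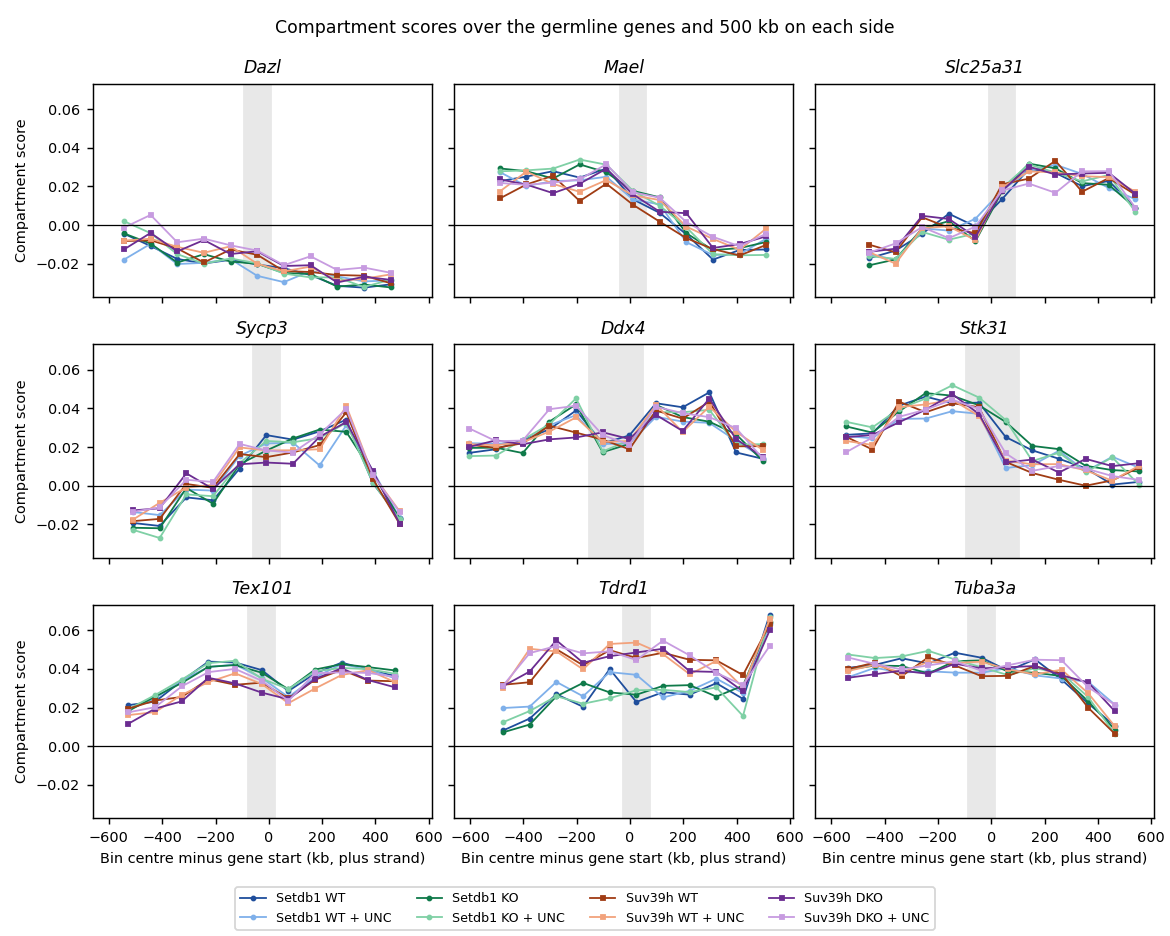
Compartment score (y axis) of the bins within 500 kb of each gene against the distance of the bin centre from the start of the gene (x axis, kb along the plus strand), 1 line per library, with the bins of the gene shaded. The *Dazl* profile lies below 0 apart from single flanking bins in Setdb1 KO + UNC and Suv39h DKO + UNC, those of *Mael*, *Sycp3* and *Slc25a31* cross 0 beside the gene, and the Suv39h lines run above the Setdb1 lines across most of the *Tdrd1* panel.

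Inhibition of G9a and GLP moved none of the 9 genes to the other compartment. In Setdb1 WT + UNC against Setdb1 WT, 0 genes switched, while 3.09% of protein-coding genes did. With 8 of the 9 genes in A in all libraries, only *Dazl* could move from B to A. At such backgrounds few or no switches would be seen among any 9 genes, so counts of 0 here and below say little. A change of at least 0.01, the size the study uses for compartment changes, was seen in 2 genes (background 6.62%): *Tdrd1* was higher by 0.0141 and *Stk31* was lower, with a difference of -0.0109. The median over the 9 genes was -0.00408, against -0.000636 for all protein-coding genes, and 7 of the 9 genes were lower in this treated library, against 56.7% of protein-coding genes. In the other pairs, no gene switched or changed by 0.01. There the medians were 0.00117 for Setdb1 KO + UNC against KO, 0.00157 for Suv39h WT + UNC against WT and 0.000344 for Suv39h DKO + UNC against DKO, against 0.000274, 0.000198 and 6.35e-05 for all protein-coding genes. In these pairs 6, 5 and 6 of the 9 genes were higher, against 53.9%, 52.1% and 50.5% of protein-coding genes. The last of these medians had no settled sign, at -0.00204 with the implied chromosome mean subtracted and 0.00228 with it added. The backgrounds for switching were 1.95% for Setdb1 KO + UNC against Setdb1 KO, 2.12% for Suv39h WT + UNC against Suv39h WT and 2.22% for Suv39h DKO + UNC against Suv39h DKO. The backgrounds for a change of 0.01 were 0.961%, 3.25% and 5.04% in the same order. No gene was higher in all 4 treated libraries than in its untreated partner, and none was lower in all 4. Of all protein-coding genes, 6.04% and 5.79% were.

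limma, fitted to all bins with the 4 treated libraries paired with the 4 untreated ones, called 0 of the 11 bins for UNC0642, as it did across all bins (0%), where 552 higher and 635 lower bins passed an unadjusted p under 0.05. *Tdrd1* had the largest estimate among the members, 0.00512 with a 95% interval from -0.00102 to 0.0113 and a limma adjusted p of 0.957. *Dazl* was estimated at -0.00247, from -0.00695 to 0.00200. Leaving out a library of 1 pair removes that pair from the comparison. The pair Setdb1 KO and KO + UNC also differs in the days of 4-OHT. Without either library of that pair, *Tdrd1* was estimated at 0.00605 (from -0.00136 to 0.0135). Without either library of the pair Setdb1 WT and WT + UNC, *Tdrd1* was estimated at 0.00213 (from -0.00379 to 0.00805) and *Dazl* at -0.00134 (from -0.00634 to 0.00366). Without either library of the pair Suv39h DKO and DKO + UNC, *Tdrd1* was estimated at 0.00812 (from 0.00194 to 0.0143). Its limma adjusted p was 0.999. *Sycp3* was estimated at 0.00491 (from 0.000142 to 0.00968) without the pair Setdb1 WT and WT + UNC. Its limma adjusted p was 0.879. These 95% intervals lie above 0 but are not adjusted for the number of bins. The term for a difference in UNC0642 response between the lines called 0 of the 11 bins, again 0% across all bins, with 446 and 434 bins in either direction at an unadjusted p under 0.05.

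Loss of SETDB1 likewise switched no gene. No member changed by 0.01 in Setdb1 KO against Setdb1 WT, where the backgrounds were 2.17% for switching and 1.41% for a change of 0.01. The differences there ran from -0.00803 for *Sycp3* to 0.00438 for *Mael*. Between Setdb1 KO + UNC and Setdb1 WT + UNC, 0 genes switched (background 4.09%) and *Stk31* alone changed by 0.01 (background 10.3%), being higher by 0.0167. *Dazl*, *Mael*, *Slc25a31* and *Stk31* were higher in both pairs and *Ddx4* and *Tex101* lower in both. Over all protein-coding genes, 26.0% and 25.6% were higher or lower in both. In Setdb1 KO + UNC against untreated Setdb1 WT, in which all 3 of SETDB1, G9a and GLP were lost or inhibited, 0 genes switched (background 2.24%) and 0 changed by 0.01 (background 1.63%). *Dazl* differed by 0.000607 in this comparison, and the extremes were *Tdrd1* at 0.00607 and *Tuba3a* at -0.00502.

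limma called 0 of the 11 bins for SETDB1 loss, 2 libraries against 2, and 0% of all bins, where 1237 higher and 945 lower bins passed an unadjusted p under 0.05. The second bin of *Stk31* had the largest estimate, 0.0164 with a 95% interval from 0.00663 to 0.0261 and an adjusted p of 0.340. The other member bins had estimates between -0.00424 and 0.00442. The *Stk31* estimate rested on Setdb1 WT + UNC, in which this bin was low. It was 0.0254 without Setdb1 WT and 0.00727 without Setdb1 WT + UNC. Each of these fits leaves a single library on the WT side and takes its spread from the other groups, so only the estimates are given. Over all bins, Setdb1 WT + UNC had a mean correlation of 0.972 with its own line and 0.976 with the Suv39h clones. Each of the other 7 libraries correlated more with its own line, by 0.0113 to 0.0211. The scores alone cannot show whether the label of this library is right, and the differences of at least 0.01 of *Stk31* and *Tdrd1* in the UNC0642 and SETDB1 comparisons rest on it. With this library set aside, no comparison within a line held a member changed by 0.01.

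Loss of SUV39H1 and SUV39H2 switched no gene either. In Suv39h DKO against Suv39h WT, 0 genes switched (background 2.49%) and 0 changed by 0.01 (background 4.86%). Between Suv39h DKO + UNC and Suv39h WT + UNC, 0 switched (2.48%) and 0 changed by 0.01 (4.78%). In Suv39h DKO + UNC against Suv39h WT, 0 switched (2.87%) and 0 changed by 0.01 (6.54%). *Dazl*, *Ddx4* and *Mael* were higher in both DKO libraries than in their WT partners, and *Sycp3* and *Slc25a31* lower in both. Over all protein-coding genes, 28.0% and 29.1% were. For *Dazl*, the differences were 0.00184 without and 0.00680 with UNC0642, and for *Mael* they were 0.00540 and 0.00164. limma called 0 of the 11 bins for SUV39H1/2 loss, and 0% of all bins, with 1140 higher and 1162 lower at an unadjusted p under 0.05. The member estimates lay between -0.00310 for *Tdrd1* and 0.00432 for *Dazl*, the latter with a 95% interval from -0.00201 to 0.0107 and an adjusted p of 0.663. Since these intervals reach to either side of 0, small shifts of these sizes were not detectable here.

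**Figure D3:**
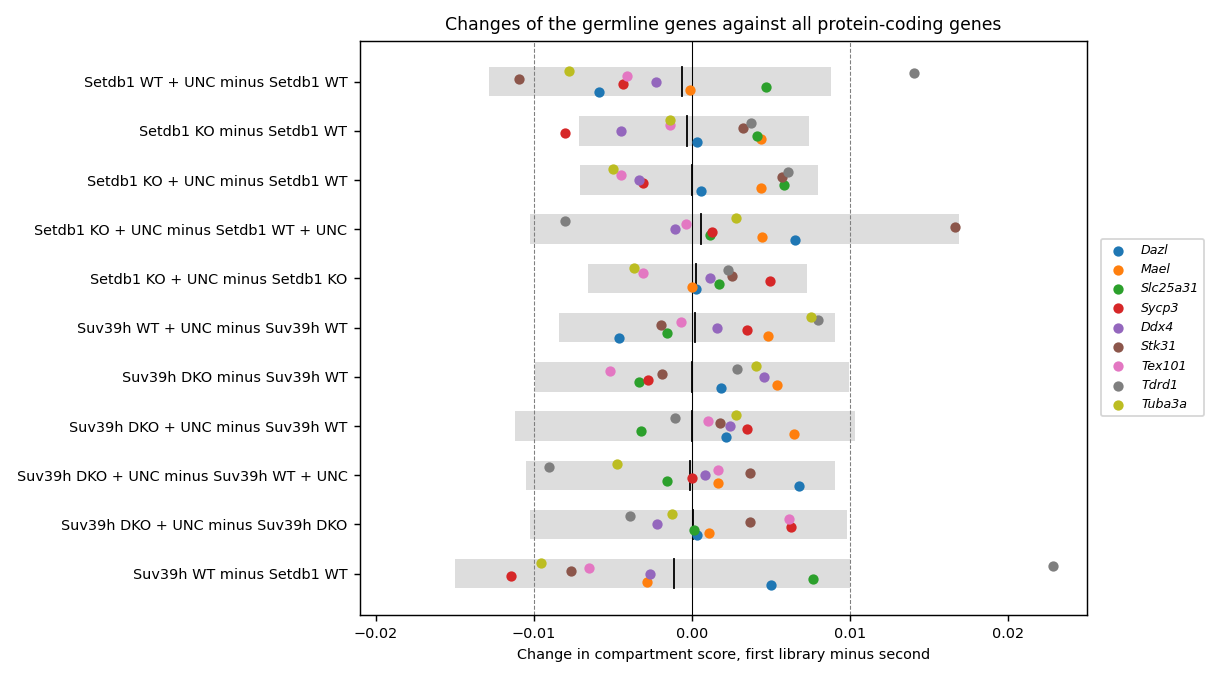
Change in compartment score (x axis, first library minus second) of each germline gene (coloured points) in 11 comparisons of 2 libraries (y axis), over grey bars that hold the central 95% of all protein-coding genes with their median as a black tick, and dashed lines at a change of 0.01. Points beyond the dashed lines are *Tdrd1*, *Stk31* and *Sycp3*, in comparisons with Setdb1 WT + UNC or between the lines.

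The largest difference of a germline gene in any of the 11 comparisons, that of *Tdrd1*, was between the lines. In Suv39h WT against Setdb1 WT, 0 genes switched (background 3.48%) and 2 changed by 0.01 (background 10.0%): *Tdrd1* was higher by 0.0228 and *Sycp3* differed by -0.0114. *Tdrd1* was higher in all 4 Suv39h libraries and *Tex101* lower in all 4 than in any Setdb1 library, so 2 of 9 genes did not overlap between the lines, against 15.5% of protein-coding genes. A limma contrast of the 4 Suv39h with the 4 Setdb1 libraries, added after the scores had been seen, called 2 of the 11 bins, against 8.64% of all bins. *Tdrd1* was higher by 0.0193 (95% interval 0.0132 to 0.0254, adjusted p 0.00457). The adjusted p ran from 0.00166 to 0.0342 as single libraries were left out or the scores rescaled. The second bin of *Stk31* differed by -0.0119 (95% interval -0.0187 to -0.00498, adjusted p 0.0415). It missed the threshold under 8 of 12 alternatives, namely quantile normalization and leaving out any 1 library other than Setdb1 WT + UNC, with adjusted p up to 0.189. Without Setdb1 WT its estimate was -0.00732. On gene scores in place of bins, 1 of the 9 genes was called, as were 1796 of the 20709 protein-coding genes. In the fit of bins without Setdb1 WT + UNC, the second bin of *Stk31* had an adjusted p of 0.00249, and *Sycp3* passed as well, at 0.0275, while the calls over all bins rose from 2070 to 2913. This contrast holds line, clone and genotype together, and they cannot be told apart. Its p-values hold no spread between clones, since libraries of the same clone stood as replicates.

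The *Tdrd1* difference extended over its surroundings. The mean of the 10 flanking bins in the Setdb1 line was 0.0289 in WT, 0.0317 in WT + UNC, 0.0289 in KO and 0.0273 in KO + UNC. In the Suv39h clones it was 0.0444 in WT, 0.0448 in WT + UNC, 0.0431 in DKO and 0.0452 in DKO + UNC. These means did not overlap between the lines, while in the farthest flanking bins downstream of *Tdrd1* the values of the lines did. The bin of *Tdrd1* also holds *Ccdc186* and *Vwa2*, so its score does not belong to *Tdrd1* alone.

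**Figure D4:**
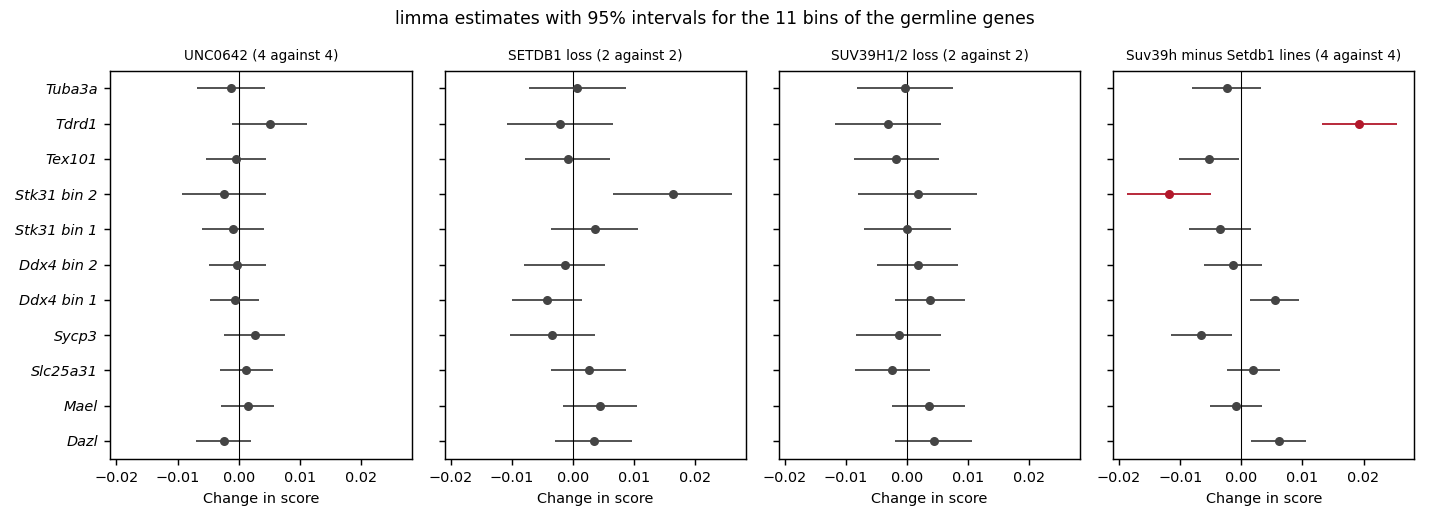
limma estimates (x axis, change in compartment score, bars for 95% intervals) of the 11 bins of the germline genes (y axis) for UNC0642, SETDB1 loss, SUV39H1/2 loss and the Suv39h clones against the Setdb1 line, with bins at an adjusted p under 0.05 in red. The 2 red bins, of *Tdrd1* at 0.0193 and of *Stk31* at -0.0119, are both in the panel of the lines.

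A wider list of 66 germline genes, covering piRNA factors, meiosis genes and other germ cell genes, was read in the same way, and 63 could be scored. Of these, 59 (93.7%) were in A in all 8 libraries, against 70.8% of protein-coding genes. *Asz1*, a piRNA factor of mitochondria, *Mei4*, needed for meiotic DNA breaks, and *Tktl2*, a transketolase-like gene, were in B in all 8. These 3 and the genes named next were picked out after their values were seen. *Asz1* ranged from -0.0146 to -0.00932 and *Mei4* from -0.0412 to -0.0376. *Ddx25*, an RNA helicase of spermatids, was the one gene with both signs, at 0.00225 in Setdb1 WT, 0.00168 in Suv39h WT and -0.0130 to -0.00336 in the other libraries. It was thus in A in both untreated WT libraries and in B in all 6 perturbed ones, as were 6 of the 20709 protein-coding genes (0.0290%), and its scores in the untreated WT libraries were close to 0. The pattern was set after these values were seen, so its share is a description and no test. Having both signs was seen in 1 of 63 genes of this list and in 8.03% of protein-coding genes. limma called 0 of the 63 genes for UNC0642, SETDB1 loss or SUV39H1/2 loss, where 2, 6 and 8 genes had a bin at an unadjusted p under 0.05, against 5.75%, 10.5% and 11.9% of protein-coding genes. Between the lines it called 5 of 63, *Sycp2*, *Syce3*, *Msh4*, *Tex14* and *Tex15*, 1 higher and 4 lower in the Suv39h clones, where 9.92% of protein-coding genes had a called bin.

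**Figure D5:**
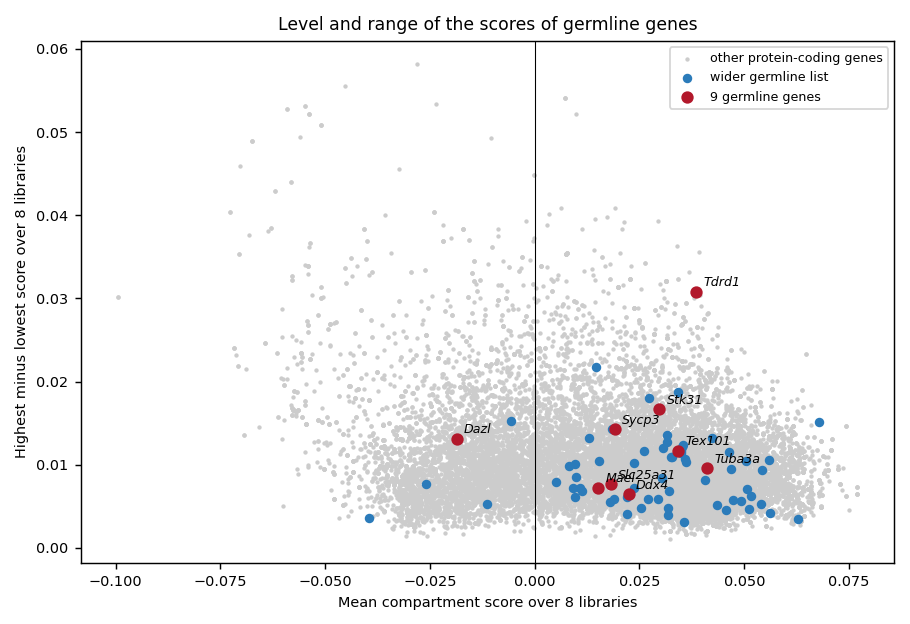
Mean compartment score over 8 libraries (x axis) against the highest minus the lowest score (y axis) for the 9 germline genes (red, named), the wider germline list (blue) and all other protein-coding genes (grey). *Tdrd1*, with a range of 0.0308, stands above the other germline genes, and *Dazl* is the one red point left of 0.

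For each germline gene, the protein-coding gene with the most similar scores was found by Euclidean distance over the 8 libraries. Among the 9 germline genes, *Tdrd1* lay farthest from its nearest such gene, *Dnah8* on chromosome 17, at a distance of 0.0147. The other nearest genes were *Olfr1441* for *Dazl*, *Actl7b* for *Ddx4*, *F830045P16Rik* for *Mael*, *Smim3* for *Sycp3*, *Sec22c* for *Tex101*, *Tbcd* for *Slc25a31*, *Fez1* for *Stk31* and *Mnt* for *Tuba3a*, at 0.00330 to 0.00650. *Pou5f1*, *Nanog*, *Sox2*, *Klf4* and *Esrrb*, which mark embryonic stem cells, were in A in all 8 libraries. In base composition the bins of the germline genes had a median GC content of 42.4% against 44.6% for protein-coding genes.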

How the data were processed

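Hi-C scores of mESCs were read from 8 score files, 1 per group. The authors cut chromatin with DpnII, ran the 4D Nucleome Hi-C pipeline on mm10, kept mapping qualities above 10, built maps with Juicer Tools and deposited compartment scores, in bins of 100 kb, as first eigenvectors of KR-normalised maps made by autosome. Sex chromosomes were not scored. Which of the repeated Hi-C experiments each file holds, or whether a pool, is not stated. Read counts are not part of the score files, and the totals given by the study were not used here, so no interval from depth is given. The deposited scores average 0 on each autosome, which fits a subtracted mean of 0.00165 to 0.0112, a step inferred here from the values. A general rise or fall of a whole chromosome can therefore not appear.

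A gene's score was the mean over the bins its GENCODE vM21 body overlaps (mm10; all bins fitted inside the reference chromosomes). All 9 genes were matched and none was lost to a filter. Genes with a bin missing from any library were left out, which kept 20709 of 20807. A comparison of 2 libraries has no replicate check and no p. limma 3.58.1 in R 4.3.3 was fitted to all 23972 bins, with the 4 genotype backgrounds as block and UNC0642 as coefficient, and with Benjamini-Hochberg adjustment at 0.05 over all bins. The fit had 3 residual degrees of freedom, to which moderation added 7.24. Its p-values measure how the treated-minus-untreated differences spread over the 4 backgrounds, and that spread may be technical. They hold no spread between clones. In the contrasts of SUV39H1/2 loss and of the lines, libraries of the same clone stood as replicates. The procedure was tested on simulated data. The members and lists were chosen with earlier results of these data known. All 9 members were named, and genes of the wider list only where they changed by 0.01 in 1 direction throughout a comparison, which none did. Those of the wider list that are named were therefore chosen after their values were seen. Alternatives were other scalings and centrings, other thresholds and bins, other limma settings and leaving out each library. The contrast of the lines, and the medians without Setdb1 WT + UNC, were added after seeing the data.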

Additional observations from a re-analysis of the deposited data

How the results depend on the processing

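The count of genes in A and the count of 0 switching genes stayed the same with the implied chromosome mean added or subtracted, with the bin of the gene start only and with 2 more bins on each side. The count in A was also the same after quantile normalization, and that of switching genes with scores of at least 0.005 either way. The number of members past a change threshold followed the threshold and the window. At 0.005 in place of 0.01, 4 members passed for Setdb1 WT + UNC against WT, 1 for Setdb1 KO against WT, 4 for Setdb1 KO + UNC against WT and 3 for Setdb1 KO + UNC against WT + UNC. At 0.005, 2 passed in each of Suv39h WT + UNC against WT, DKO against WT, DKO + UNC against WT + UNC and DKO + UNC against DKO, 1 in Suv39h DKO + UNC against WT, and 7 in Suv39h WT against Setdb1 WT. The shares of protein-coding genes passing 0.005 were 27.1%, 15.1%, 15.2% and 33.8% in the Setdb1 comparisons in this order, 4133 of 20709 genes for Suv39h WT + UNC against WT, 26.9%, 27.1%, 26.5% and 32.9% in the further Suv39h ones, and 36.8% between the lines. At 0.02, 0 passed for Setdb1 WT + UNC against WT, 0 for Setdb1 KO + UNC against WT + UNC and 1 for Suv39h WT against Setdb1 WT, against 0.444%, 1.74% and 0.985% of protein-coding genes. With the bin of the start only, the counts were 1, 0 and 2 in these comparisons (7.69%, 11.4% and 11.6% of protein-coding genes), and with 2 more bins on each side 0, 0 and 1 (3.15%, 6.58% and 4.65%). Subtracting the implied chromosome mean once more gave 1 member in Suv39h DKO + UNC against WT + UNC (6.00%). In Setdb1 WT + UNC against WT, the change of *Tdrd1* was 0.00345 with 2 more bins on each side, against 0.0141. That of *Stk31* was -0.00583 with the bin of the start only and -0.00680 with 2 more bins on each side, against -0.0109. The median change of the members for Suv39h DKO + UNC against Suv39h WT was -0.00116 once the change of the flanks was taken off, against 0.00218. That for Suv39h DKO + UNC against DKO went from 0.000344 to -0.000579 in the same way. The median for Setdb1 KO + UNC against KO went from 0.00117 to 3.44e-05 with 2 more bins on each side. For Suv39h WT + UNC against WT the median was 0.000185 once the flanks were taken off and 0.00349 with the bin of the start only, against 0.00157. For Setdb1 WT + UNC against WT it was -0.00239 with 2 more bins on each side, against -0.00408. Why these values moved was not tested beyond the threshold and window that define them.

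For limma, leaving out a library of the Setdb1 line leaves a single library on a side for SETDB1 loss, so only estimates are given. That of the second bin of *Stk31* ran from 0.00727 without Setdb1 WT + UNC to 0.0254 without Setdb1 WT. Other scalings and limma settings called 0 member bins for SETDB1 loss. UNC0642, SUV39H1/2 loss and the term of line by UNC0642 gave 0 in all alternatives run. The limits are the single set of scores per group, the 100-kb bin, which holds other genes beside most of the 9, the use of no read depth, and centring by chromosome. The typical 95% interval of an UNC0642 estimate was 0.00470 to either side, so smaller shifts could not be detected, and the adjustment over all bins raises that limit.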
